A study of Mus musculus with 30 samples.

Results

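The 10 genes described here are targets of the transcription factor ATF4 that make, interconvert or carry amino acids. They were taken by name from a list, and all 10 were found by gene symbol among the 54232 genes counted in 3T3-L1 cells. The members are Phgdh, Psat1 and Psph of serine synthesis, Shmt2 and Mthfd2 of mitochondrial one-carbon metabolism, Asns of asparagine synthesis, Aldh18a1 and Pycr1 of proline synthesis, Slc7a5 of amino acid transport and Chac1 of glutathione breakdown. mRNA was sequenced in 30 libraries of 6 groups, with 5 libraries each. All cells were mouse 3T3-L1 preadipocytes, an established embryonic fibroblast line that turns into adipocytes in culture, and all were kept for 5 days in adipogenic medium with insulin, dexamethasone, isobutylmethylxanthine and indomethacin.

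The control cells received this medium alone. The other groups received pNaKtide at 0.7 µM, indoxyl sulfate (IS) at 100 µM, IS at 100 µM with pNaKtide at 0.7 µM, oxidized LDL (oxLDL) at 50 µg/mL, or oxLDL at 50 µg/mL with pNaKtide at 0.7 µM. pNaKtide is a cell-permeable peptide with a sequence of the Na,K-ATPase α1 subunit. It binds the Src kinase and blocks signaling through the sodium pump. IS is a solute that builds up in renal failure, and oxLDL is the lipoprotein LDL after oxidation. The comparisons ask which changes IS and oxLDL brought about and whether pNaKtide altered them. The labels give 5 days of treatment while the study's methods give a shorter one, and the extraction text names adipose tissue although the samples are labelled as a cell line. Nothing states that the 5 libraries of a group came from separate cultures, so the p-values measure the spread between these libraries, which may be technical. All libraries are of 1 cell line, so they stand for this line only.

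ATF4 is the effector of the integrated stress response. When a kinase of this response phosphorylates eIF2α, translation falls in general, while the ATF4 mRNA is translated more through its upstream open reading frames. ATF4 then binds C/EBP-ATF response elements and raises genes for amino acid synthesis, uptake and charging of tRNA, so the level of Atf4 mRNA need not follow the activity of the protein. In fat cells these pathways feed growth, one-carbon units and redox balance during differentiation.

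Coordinates are those of the GENCODE M21 annotation of GRCm38, the build to which the authors aligned the reads. Phgdh (ENSMUSG00000053398) lies at chr3:98313170-98339990, Psat1 (ENSMUSG00000024640) at chr19:15904678-15947337 and Psph (ENSMUSG00000029446) at chr5:129765558-129787449. Shmt2 (ENSMUSG00000025403) lies at chr10:127517123-127522444 and Mthfd2 (ENSMUSG00000005667) at chr6:83305691-83325908. Asns (ENSMUSG00000029752) lies at chr6:7675169-7693254, Aldh18a1 (ENSMUSG00000025007) at chr19:40550257-40588463 and Pycr1 (ENSMUSG00000025140) at chr11:120635712-120643769. Slc7a5 (ENSMUSG00000040010) lies at chr8:121881150-121907694 and Chac1 (ENSMUSG00000027313) at chr2:119351229-119354381. All are protein-coding, and all but Chac1 lie on the minus strand.

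Promoter windows of RefSeq on GRCm38.p6, from 250 bases before to 50 bases after each start, were listed for 9 of the 10 members. The core of the C/EBP-ATF response element, TGATGNAA, was searched on both strands, and no other motif was searched. It was found in the windows of 3 members, Asns, Pycr1 and Chac1. Of all 27025 genes with a symbol and a window, 1219 (4.51%) held it. The match is at 23 bases upstream of the start in Asns and at 103 bases in Pycr1, both on the strand of the gene, and at 193 bases upstream in Chac1 on the other strand. The 250 bases upstream of these 3 starts are shown since they are the members whose windows hold the letters through which ATF4 is known to act, and the capitals mark the match. They lie at chr6:7693210-7693459 on the minus strand (Asns), chr11:120643749-120643998 on the minus strand (Pycr1) and chr2:119350992-119351241 on the plus strand (Chac1).
Asns: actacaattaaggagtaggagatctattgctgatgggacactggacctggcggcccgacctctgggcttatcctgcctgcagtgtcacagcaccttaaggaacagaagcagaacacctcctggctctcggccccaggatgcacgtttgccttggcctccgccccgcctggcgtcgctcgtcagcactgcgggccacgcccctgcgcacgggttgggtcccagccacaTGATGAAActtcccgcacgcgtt
Pycr1: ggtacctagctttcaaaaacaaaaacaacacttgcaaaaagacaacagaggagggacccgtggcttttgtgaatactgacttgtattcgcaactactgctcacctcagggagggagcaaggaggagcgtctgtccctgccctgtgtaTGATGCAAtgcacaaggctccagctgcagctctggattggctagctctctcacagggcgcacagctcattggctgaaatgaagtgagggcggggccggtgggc
Chac1: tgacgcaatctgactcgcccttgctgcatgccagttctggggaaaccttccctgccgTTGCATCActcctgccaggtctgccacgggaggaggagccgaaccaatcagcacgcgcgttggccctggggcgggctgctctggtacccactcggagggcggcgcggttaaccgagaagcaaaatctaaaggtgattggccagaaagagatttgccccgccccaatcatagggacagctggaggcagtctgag
A match describes the letters and is no measured binding site, and the windows of the other 6 members hold no such letters.

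The libraries held 6945498 to 15159877 counts. All 9 adipocyte markers were detected, as were all 7 of the preadipocyte and fibroblast list. Of 6 macrophage markers 3 had more than 14 counts in all, and Ptprc and Itgam had 0. Of 4 endothelial markers 1 passed this level. A pair of libraries stood apart. On the first principal component of the 12580 tested genes whose log2 CPM averaged 1 or more, control replicate 1 lay at -25.8 while the other controls lay between 6.47 and 29.9, and IS replicate 4 lay at 28.2 while the other IS libraries lay between -36.7 and -23.2. Each of the pair thus lay within the range of the other group. Control replicate 1 was the lowest control for 10 of 10 members, and IS replicate 4 was the highest IS library for 7 of 10. Groups were kept as labelled, and whether this pair carry each other's labels was not tested. The changes with oxLDL and IS against control are given with and without them. Fewer cells of a type and less RNA per cell cannot be told apart in these bulk samples.

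Per length, the members spanned a wide range of levels. In control cells Psat1 was highest at 107.6 ± 14.8 FPKM (SD, n = 5), followed by Asns at 81.1 ± 11.8 FPKM and Phgdh at 78.2 ± 15.6 FPKM, and the ranges of these neighbours overlapped. The place of Phgdh is uncertain, since near-identical copies of it hold counts too, and with them its level in control cells was 467.3 ± 91.3 CPM after TMM normalization (SD, n = 5) against 196.8 CPM for Phgdh alone. Mthfd2 followed at 40.8 ± 0.94 FPKM with no overlap on either side. Slc7a5 at 34.0 ± 1.90 FPKM, Shmt2 at 28.9 ± 5.10 FPKM and Aldh18a1 at 20.7 ± 2.88 FPKM overlapped in turn. Chac1 at 12.9 ± 2.66 FPKM, Psph at 6.52 ± 0.74 FPKM and Pycr1 at 3.19 ± 0.71 FPKM were the lowest, and their ranges were separate. All 10 members passed the filter of more than 14 counts summed over the 30 libraries. Below, levels of 1 gene are CPM, which are counts scaled to a common library size, after TMM normalization, and changes are log2 fold changes with their standard error (SE). A gene was called at an adjusted p below 0.1.

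**Figure D1:**
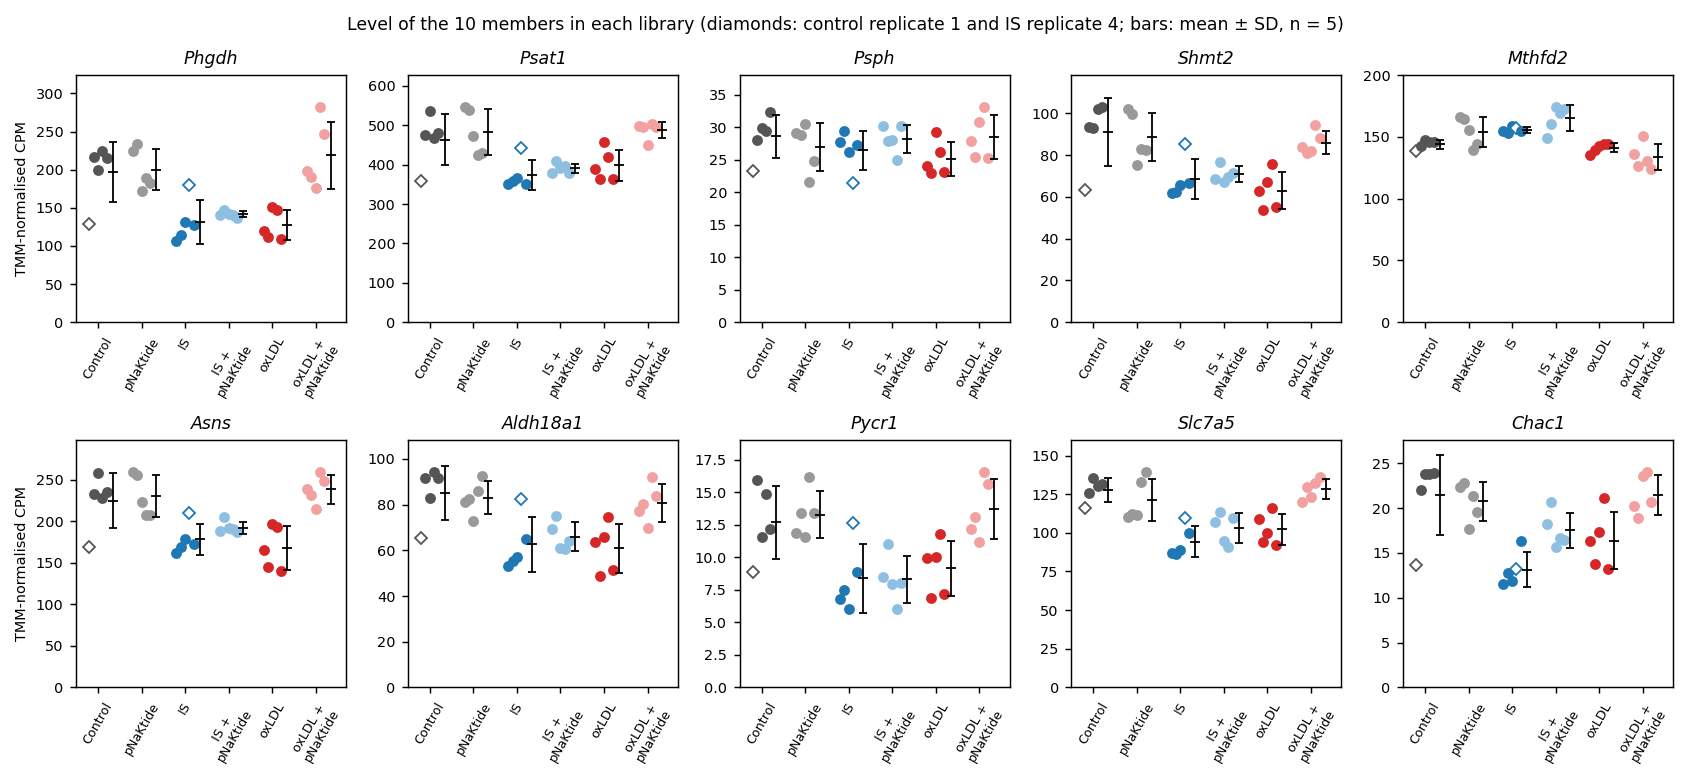
TMM-normalised CPM of each member (y axis, from 0) in every library of the 6 groups (x axis), with the mean and SD of 5 libraries beside the points. Control replicate 1 and IS replicate 4 are open diamonds. Control replicate 1 is the lowest control in all 10 panels, and every IS library of Mthfd2, from 153.4 to 159.3 CPM, lies above every control.

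In oxLDL-treated cells 8 of the 10 members were lower than in control cells and none was higher. Of all 20139 genes tested, 18.0% were called lower and 18.1% higher. The median change of the members was -0.40 against 0.04 over all genes, and it was -0.25 with a trend over GC content and length taken out and -0.27 under scaling by library size alone. In IS-treated cells 8 members were also lower and none was higher, where 3.49% of all genes were called lower and 4.45% higher, with a median of -0.42 against 0.03 over all genes. The same 8 members were called in both comparisons, which share the control libraries. Psph and Mthfd2 were called in neither. Beside these changes the summed adipocyte markers ranged from 12308 to 15323 CPM in control cells, from 10303 to 12728 CPM with IS and from 11774 to 15605 CPM with oxLDL. The preadipocyte and fibroblast sum ranged from 2223 to 3261 CPM in control cells, from 1248 to 2529 CPM with IS and from 1713 to 2035 CPM with oxLDL. Most of the latter sum is Col1a1, a collagen gene, at a mean of 2292 CPM in control cells, and with oxLDL the means of 6 of the 7 genes were lower than in control cells, with Dlk1, an inhibitor of adipogenesis, at 91.7 against 147.6 CPM. Pdgfra, a receptor of preadipocytes, was the exception, at 137.1 against 116.0 CPM. With pNaKtide alone, where no member was called, the median of this sum was 1770 CPM against 2847 CPM in control cells. Its range with pNaKtide alone, from 1477 to 2907 CPM, overlapped that of the controls. The part of these markers in the changes was not tested.

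The serine pathway opens with Phgdh, which oxidizes 3-phosphoglycerate. Phgdh measured 128.6, 216.2, 199.0, 225.0 and 215.3 CPM in control replicates 1 to 5. With oxLDL it measured 119.8, 112.2, 151.4, 146.5 and 109.3 CPM, and with IS it measured 105.9, 114.5, 131.4, 179.8 and 126.9 CPM. All treated libraries lay below control replicates 2 to 5, but control replicate 1 lay inside both treated ranges. Phgdh fell with oxLDL by 0.62 ± 0.14 in log2 units (adjusted p = 0.00783), or by 0.74 without the pair of libraries that stood apart. With IS it fell by 0.58 ± 0.14 (adjusted p = 0.0487), and by 0.84 without them. The value of Phgdh is uncertain, since 9 annotated copies of at least 95% identity over 200 or more bases held 76900 counts against 56046 for Phgdh itself, or 57.8% of their sum. The closest, Gm7901, is 98.7% identical over 1597 bases. Summed over Phgdh and its copies, the change was -0.61 with oxLDL (adjusted p = 0.00916) and -0.57 with IS (adjusted p = 0.0622).

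Psat1, the transaminase of the second step, measured 357.8, 475.7, 535.8, 467.3 and 479.5 CPM in the controls. It measured 388.0, 364.6, 456.6, 420.1 and 363.6 CPM with oxLDL and 351.9, 357.7, 367.4, 441.8 and 351.8 CPM with IS. The treated libraries all lay below control replicates 2 to 5, while control replicate 1 lay below every oxLDL library and among the IS libraries. Psat1 fell by 0.22 ± 0.10 with oxLDL (adjusted p = 0.0911) and by 0.31 ± 0.10 with IS (adjusted p = 0.0817). The oxLDL call rested on single libraries, since only 3 of the 10 fits that left out 1 library kept it, and its adjusted p was 0.252 without control replicate 3. The IS call was kept in 2 of 10 such fits, with an adjusted p of 0.225 without IS replicate 1. Psph, the phosphatase that releases serine, ranged from 23.3 to 32.3 CPM in controls, from 23.0 to 29.3 CPM with oxLDL and from 21.4 to 29.4 CPM with IS. The groups overlapped widely, and the changes of -0.19 ± 0.11 (adjusted p = 0.187) and -0.11 ± 0.10 (adjusted p = 0.534) did not pass the test. Psph shares 452 exon bases with Cct6a on the other strand, which held 59037 counts against 9442 for Psph. The strand setting of the counting is not given in the sources used here, so reads of that stretch may have been assigned to either gene.

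Shmt2, which turns serine into glycine and a one-carbon unit in mitochondria, measured 63.3, 93.7, 92.9, 101.9 and 103.1 CPM in the controls. It measured 63.0, 53.9, 67.3, 75.6 and 55.3 CPM with oxLDL and 61.8, 62.5, 65.7, 85.3 and 66.7 CPM with IS. Again control replicate 1 alone lay among the treated libraries. Shmt2 fell by 0.53 ± 0.11 with oxLDL (adjusted p = 0.0073) and by 0.41 ± 0.11 with IS (adjusted p = 0.0626). Mthfd2, the next enzyme of the folate cycle, behaved unlike it. It measured 138.3, 142.7, 147.9, 145.8 and 145.6 CPM in the controls, 135.8, 139.8, 142.7, 144.4 and 144.5 CPM with oxLDL and 154.6, 153.4, 159.3, 157.3 and 154.7 CPM with IS. The spread within each of these groups was small, and every IS library lay above every control, as was so for 0.854% of all genes. The changes of -0.03 ± 0.07 with oxLDL (95% interval -0.17 to 0.11, adjusted p = 0.811) and 0.11 ± 0.07 with IS (95% interval -0.03 to 0.25, adjusted p = 0.294) did not pass the test across all genes. Under scaling by library size alone the value with oxLDL was 0.10, so its direction is not fixed.

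Asns, which makes asparagine from aspartate and glutamine, measured 169.2, 233.0, 258.3, 227.5 and 234.7 CPM in the controls. It measured 165.4, 144.5, 196.1, 193.3 and 140.7 CPM with oxLDL and 162.0, 168.9, 178.3, 210.3 and 172.3 CPM with IS. All treated libraries lay below control replicates 2 to 5. Asns fell by 0.42 ± 0.10 with oxLDL (adjusted p = 0.00894) and by 0.33 ± 0.10 with IS (adjusted p = 0.0817). In proline synthesis, Aldh18a1 makes the glutamate semialdehyde and Pycr1 reduces the ring that forms from it. Aldh18a1 measured 65.2, 91.7, 83.1, 94.2 and 91.5 CPM in the controls, 63.7, 48.8, 65.7, 74.5 and 51.6 CPM with oxLDL and 53.1, 55.2, 57.1, 82.4 and 65.2 CPM with IS. It fell by 0.49 ± 0.12 with oxLDL (adjusted p = 0.00851) and by 0.45 ± 0.12 with IS (adjusted p = 0.0614). Pycr1 was low and spread widely, from 8.86 to 16.0 CPM in controls, from 6.88 to 11.8 CPM with oxLDL and from 6.04 to 12.7 CPM with IS. It fell by 0.48 ± 0.18 with oxLDL (adjusted p = 0.05) and by 0.61 ± 0.18 with IS (adjusted p = 0.0734), and the oxLDL call was kept in 6 of 10 fits without 1 library, with an adjusted p of 0.167 without control replicate 2. The IS call of Pycr1 was kept in 2 of 10 such fits, with an adjusted p of 0.223 without IS replicate 1.

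Slc7a5, the light chain of the LAT1 exchanger for large neutral amino acids, measured 115.8, 125.7, 135.1, 130.2 and 131.8 CPM in the controls. It measured 109.0, 93.9, 99.9, 116.3 and 92.1 CPM with oxLDL and 87.0, 86.4, 88.9, 109.6 and 100.0 CPM with IS. The IS libraries all lay below the controls, and 1 oxLDL library lay above the lowest control. Slc7a5 fell by 0.32 ± 0.09 with oxLDL (adjusted p = 0.0117) and by 0.44 ± 0.09 with IS (adjusted p = 0.0214), but its oxLDL value was -0.10 (adjusted p = 0.258) with a trend over GC content and length taken out. Chac1, a γ-glutamyl cyclotransferase that breaks down glutathione, measured 13.6, 22.0, 23.8, 23.9 and 23.9 CPM in the controls, 16.4, 13.8, 17.3, 21.1 and 13.2 CPM with oxLDL and 11.5, 12.8, 11.9, 13.3 and 16.3 CPM with IS. Control replicate 1 was far below the other controls and lay inside both treated ranges. Chac1 fell by 0.39 ± 0.14 with oxLDL (adjusted p = 0.0326) and by 0.70 ± 0.14 with IS (adjusted p = 0.0164). Its oxLDL call was lost with that trend out (-0.08, adjusted p = 0.647) and under scaling by library size alone (-0.25, adjusted p = 0.133), and it was kept in 8 of 10 fits without 1 library.

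The groups of no member were fully separate in the oxLDL comparison, where 3.52% of all genes were lower without overlap. In the IS comparison Slc7a5 was lower without overlap, as were 0.958% of all genes, and Mthfd2 was higher without overlap. Without control replicate 1 and IS replicate 4, 9 members were lower with oxLDL, Psph included (-0.26, adjusted p = 0.0356), and the same 8 were lower with IS. In those fits 47.6% and 45.4% of all genes were called in either direction. With oxLDL the changes of the other members called were then -0.51 for Asns, -0.30 for Psat1, -0.64 for Shmt2, -0.57 for Aldh18a1, -0.59 for Pycr1, -0.52 for Chac1 and -0.35 for Slc7a5. With IS they were -0.48 for Asns, -0.45 for Psat1, -0.61 for Shmt2, -0.64 for Aldh18a1, -0.90 for Pycr1, -0.83 for Chac1 and -0.53 for Slc7a5. Each of these values lay farther from 0 than with all libraries. Mthfd2 stood at -0.04 with oxLDL and 0.10 with IS, and Psph at -0.11 with IS. The IS calls depended on the fit. With the control and IS libraries alone in the model 0 members were called, with adjusted p-values of 0.256 or more, although edgeR with all 6 groups called 8 and DESeq2 called 8. Fits that left out 1 library called 1 to 8 members with IS. They called 8 only without control replicate 1 or IS replicate 4, 4 without control replicate 3, 1 without control replicate 5 and 2 without any of the other 6. Chac1 kept its IS call in 10 of these 10 fits and Slc7a5 in 9, while the other called members kept theirs in 2 or 3. With oxLDL such fits called 5 to 9 members, with 5 without oxLDL replicate 2 or oxLDL replicate 5. Calls over all genes moved with the fit too. Without control replicate 1 alone they were 33.2% with IS and 45.9% with oxLDL, in either direction. Shares of all genes in the other fits of this kind are not given here. These counts therefore do not show whether the members were less stable than other genes.

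oxLDL and IS were also compared with each other, where 0.0149% of all genes were called and no member was. At an unadjusted p under 0.05 there were 2 members and 5.20% of all genes. Chac1 was higher with oxLDL than with IS by 0.31 (95% interval 0.03 to 0.59), and Mthfd2 differed by -0.14 (95% interval -0.28 to -7.8e-04). The other members differed by -0.12 to 0.13, with 95% intervals that reached from -0.35 to 0.51, so these libraries leave room for differences of up to that size.

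**Figure D2:**
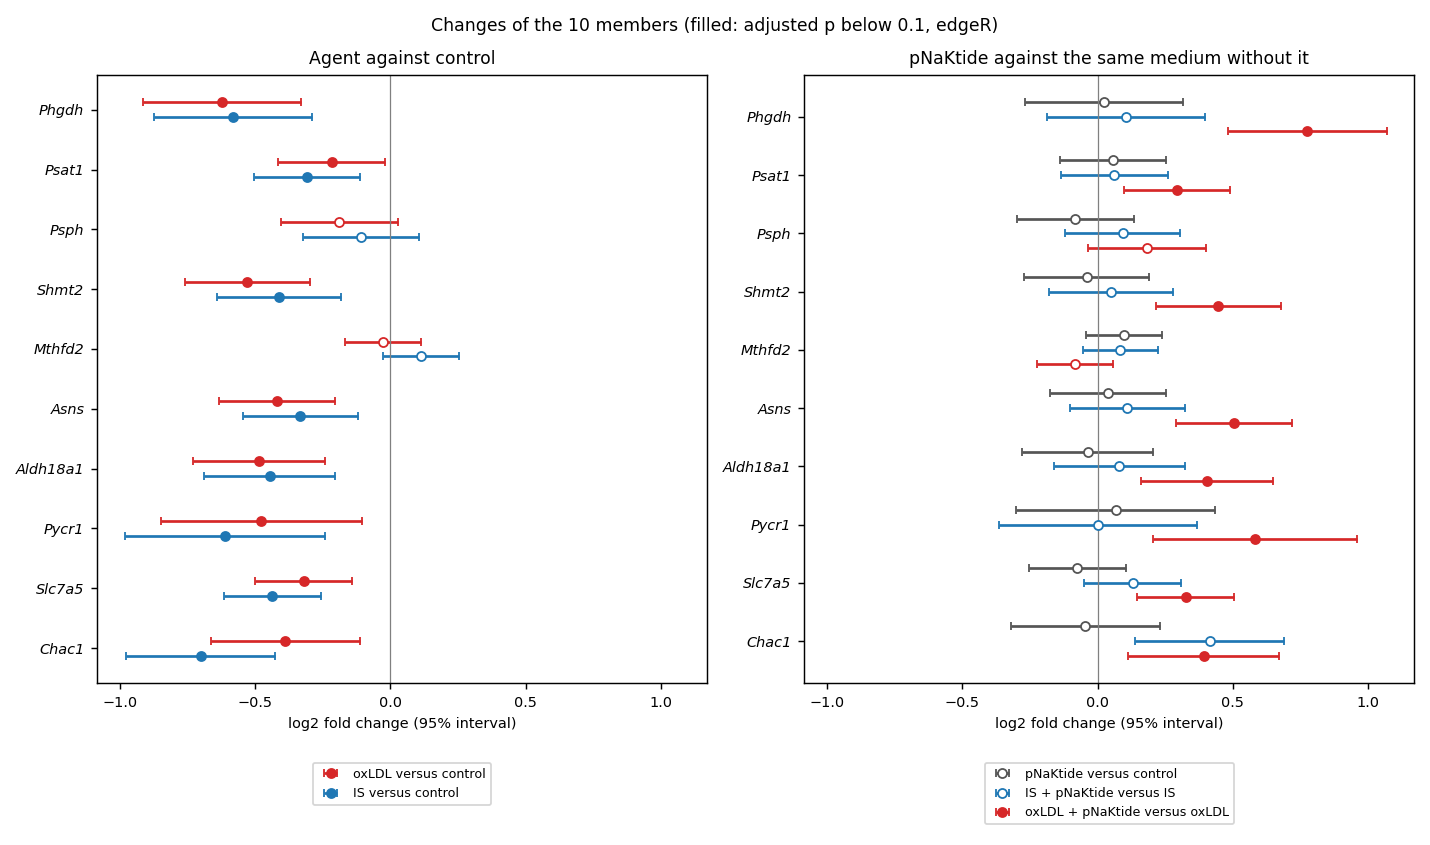
Log2 fold changes of the 10 members (x axis, points with 95% intervals) for oxLDL and IS against control on the left and for pNaKtide against the same medium without it on the right. Filled points passed an adjusted p of 0.1. Of the 10 members 8 were lower with each agent, 8 were higher with pNaKtide in oxLDL-treated cells, and none passed with pNaKtide alone or in IS-treated cells.

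No member was called with pNaKtide alone. The members differed from control by -0.08 to 0.10 with adjusted p-values from 0.91 to 0.992, and 0 were below an unadjusted p of 0.05 in edgeR. Of all genes 0.00497%, or 1 gene, was called, and DESeq2 also called 0 members. The widest 95% interval was that of Pycr1, from -0.30 to 0.44.

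With pNaKtide added to oxLDL, 8 of 10 members rose relative to oxLDL alone, and none fell. Of all genes 22.1% were called higher and 26.1% lower. The median change of the members was 0.40 against -0.09 over all genes, and it was 0.24 with the trend over GC content and length out and 0.18 under scaling by library size alone. These are the same 8 members that oxLDL lowered, in a comparison that shares the oxLDL libraries. The summed adipocyte markers were 14432 to 16072 CPM with oxLDL and pNaKtide, and the preadipocyte and fibroblast sum was 1739 to 3170 CPM, both reaching above the oxLDL ranges. Their part in the result was not tested.

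Phgdh measured 198.7, 191.0, 175.7, 282.4 and 246.3 CPM with oxLDL and pNaKtide. Every one of these libraries lay above every oxLDL library, the highest of which was 151.4 CPM. Phgdh rose by 0.78 ± 0.14 (adjusted p = 0.000101), or by 71.2%, and by 0.74 (adjusted p = 0.000268) when summed with its copies. Psat1 measured 498.1, 496.6, 451.3, 502.4 and 494.8 CPM and rose by 0.29 ± 0.10 (adjusted p = 0.0141), with 1 library below the highest oxLDL library. Psph lay between 25.3 and 33.1 CPM, overlapping the oxLDL range of 23.0 to 29.3 CPM, and its change of 0.18 ± 0.11 (adjusted p = 0.179) did not pass.

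Shmt2 measured 84.0, 80.9, 81.7, 94.4 and 88.4 CPM and did not overlap oxLDL alone, with a rise of 0.45 ± 0.11 (adjusted p = 0.00201). Mthfd2 measured 136.2, 126.6, 150.5, 130.6 and 123.7 CPM. Its change of -0.08 ± 0.07 (95% interval -0.22 to 0.06, adjusted p = 0.362) did not pass, so it stood outside the pattern of the other one-carbon member in this comparison too. Asns measured 238.8, 231.0, 214.5, 259.1 and 248.2 CPM, all above the highest oxLDL library of 196.1 CPM. It rose by 0.50 ± 0.11 (adjusted p = 0.000305), or by 41.9%.

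In proline synthesis, Aldh18a1 measured 77.3, 80.2, 69.8, 92.2 and 83.6 CPM and rose by 0.41 ± 0.12 (adjusted p = 0.00662). Pycr1 ranged from 11.2 to 16.6 CPM and rose by 0.58 ± 0.18 (adjusted p = 0.011). For both, the lowest library lay below the highest oxLDL library. Slc7a5 measured 120.2, 129.7, 123.0, 131.9 and 135.9 CPM with no overlap and rose by 0.33 ± 0.09 (adjusted p = 0.00338). Chac1 measured 20.3, 18.9, 23.5, 24.0 and 20.6 CPM, overlapping the oxLDL range, and rose by 0.39 ± 0.14 (adjusted p = 0.0204). The groups of Phgdh, Shmt2, Asns and Slc7a5 were separate, 4 of 10 members, as were those of 13.6% of all genes in this direction. All 8 calls were kept in each of the 10 fits that left out 1 library. They were not all kept in other fits, since Shmt2 (0.13), Slc7a5 (0.11) and Chac1 (0.01) were not called with a trend over GC content and length taken out, and only 4 members were called higher, with Mthfd2 called lower, under scaling by library size alone.

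Set against control cells, those given oxLDL and pNaKtide showed no member called, with changes of -0.11 to 0.15 and adjusted p-values of 0.444 or more. Of all genes 5.20% were called. At an unadjusted p under 0.05 there were 0 members in edgeR, and DESeq2 also called 0. The 95% intervals were widest for Pycr1, from -0.27 to 0.47, and for Phgdh, from -0.14 to 0.44.

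In IS-treated cells no member was called with pNaKtide, and edgeR called 0% of all genes. At an unadjusted p under 0.05 there were 564 genes, among them 1 member, and DESeq2 called 0 members. That member was Chac1, at 18.2, 20.6, 15.7, 16.7 and 16.5 CPM with IS and pNaKtide, where 1 IS library reached 16.3 CPM. Its change was 0.41 ± 0.14 (unadjusted p = 0.00447, adjusted p = 1). The other 9 members differed by 0.0004 to 0.13. Phgdh ranged from 137.1 to 147.6 CPM and Asns from 186.9 to 204.6 CPM with IS and pNaKtide, narrow ranges that lay inside those of IS alone only through IS replicate 4. The other 4 IS libraries ranged from 105.9 to 131.4 CPM for Phgdh and from 162.0 to 178.3 CPM for Asns, and every library with IS and pNaKtide lay above them. Psat1 and Shmt2 were separate in the same way, while Psph, Mthfd2, Aldh18a1, Pycr1, Slc7a5 and Chac1 overlapped. How many of all genes were separate in this way was not counted. Without control replicate 1 and IS replicate 4, 0 members and 0.0348% of all genes were called with pNaKtide added to IS. Against control, no member was called with IS and pNaKtide, where 0.358% of all genes were, but 9 of 10 members had an unadjusted p under 0.05, as had 4022 of the 20139 genes tested. The changes ran from -0.61 for Pycr1 to 0.20 for Mthfd2, with adjusted p-values of 0.14 or more. Over 11 alternative fits 0 to 9 members were called in this comparison, and DESeq2 and the replicate block were among those that called some. Without control replicate 1, 8 members were called lower and 1 higher in this comparison, as were 26.7% of all genes.

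The difference between these responses to pNaKtide was tested directly. The change with pNaKtide was greater in oxLDL-treated than in untreated cells for 5 members, where 12.8% of all genes were called in this direction. These were Phgdh (0.75 ± 0.20, adjusted p = 0.0257), Shmt2 (0.49 ± 0.16, adjusted p = 0.0428), Asns (0.47 ± 0.15, adjusted p = 0.0382), Aldh18a1 (0.44 ± 0.17, adjusted p = 0.0704) and Slc7a5 (0.40 ± 0.12, adjusted p = 0.0358). Without control replicate 1, 9 members were called, as were 37.3% of all genes. With the trend over GC content and length taken out, Shmt2 (0.15), Aldh18a1 (0.26) and Slc7a5 (0.14) were no longer called, and Asns (0.55) and Phgdh (0.39) were. Under scaling by library size alone Shmt2 (0.29), Aldh18a1 (0.24) and Slc7a5 (0.21) were not called. The change was greater in oxLDL-treated than in IS-treated cells for 3 members, where 13.9% of all genes were called. They were Phgdh (0.67 ± 0.20, adjusted p = 0.0225), Shmt2 (0.40 ± 0.16, adjusted p = 0.0747) and Asns (0.40 ± 0.15, adjusted p = 0.0556). Phgdh alone was called in this comparison without IS replicate 4. With that trend out Phgdh stood at 0.32 (adjusted p = 0.0592) and Shmt2 at 0.10 (adjusted p = 0.529), and under scaling by library size alone Shmt2 (0.20) and Asns (0.20) were not called. Between IS-treated and untreated cells the change with pNaKtide differed for no member and for 0% of all genes in edgeR. At an unadjusted p under 0.05 there were 619 genes and 1 member, Chac1 (0.46 ± 0.19, unadjusted p = 0.0223), and DESeq2 called 0 members.

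The rest of the pathway was described over 5 further lists. The first holds ATF4, the kinases of eIF2α, eIF2α itself and the subunits that direct its dephosphorylation. Of 8 genes 3 were higher and 0 lower with oxLDL, 1 was higher with IS, and 1 was higher and 5 lower with pNaKtide added to oxLDL, with medians of 0.22, 0.03 and -0.38. Of all genes, 18.1% were higher and 18.0% lower with oxLDL, 4.45% and 3.49% with IS, and 22.1% and 26.1% with pNaKtide added to oxLDL. The counts of each list in the edgeR fit with TMM and all libraries stand beside these shares. Without the pair of libraries that stood apart, 6 genes of this list were higher and 2 lower with oxLDL, and 3 higher and 1 lower with IS. In that fit 47.6% of all genes were called with oxLDL and 45.4% with IS, in either direction. Counts without the pair in the lists below stand beside these shares. Under scaling by library size alone 6 of the 8 genes were higher and 0 lower with oxLDL, and 0 higher and 7 lower with pNaKtide added, with a median of -0.60. With the trend over GC content and length out, 3 were higher and 2 lower with oxLDL. Atf4 mRNA measured 168.6 ± 15.1 CPM in control cells, 191.9 ± 12.8 CPM with oxLDL, 170.0 ± 27.4 CPM with IS and 171.1 ± 36.5 CPM with oxLDL and pNaKtide. Its changes were 0.19 ± 0.11 with oxLDL (adjusted p = 0.205), 0.01 ± 0.11 with IS (adjusted p = 0.959) and -0.17 ± 0.11 with pNaKtide added to oxLDL (adjusted p = 0.237). Atf4 mRNA thus did not pass the test in the 3 comparisons in which members were called. With the trend over GC content and length taken out it did pass in the oxLDL comparisons, at 0.42 against control (adjusted p = 0.0544) and -0.46 with pNaKtide added (adjusted p = 0.0161). Under scaling by library size alone these values were 0.31 (adjusted p = 0.0758) and -0.38 (adjusted p = 0.0185). Without the pair of libraries that stood apart, Atf4 passed against control at 0.22 (adjusted p = 0.0651). Eif2ak2, the kinase PKR that senses double-stranded RNA, rose with oxLDL by 0.63 ± 0.14 (adjusted p = 0.00783) and with IS by 0.46 ± 0.14 (adjusted p = 0.0757), or by 0.32 and 0.24 with the trend out. With pNaKtide added to oxLDL, Eif2ak3, the kinase PERK of the endoplasmic reticulum, fell by 0.68 ± 0.11 (adjusted p = 3.69e-05), and Eif2ak1, the heme-regulated kinase, rose by 0.22 ± 0.08 (adjusted p = 0.0196). The rise of Eif2ak1 was -0.01 under scaling by library size alone.

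Of 13 transcription factors and stress targets of ATF4, 1 was higher and 3 lower with oxLDL, 0 were higher and 3 lower with IS, and 4 were higher and 3 lower with pNaKtide added to oxLDL, with medians of 0.09, -0.22 and -0.03. With oxLDL 7.69% were higher and 23.1% lower, and with pNaKtide added 30.8% and 23.1%, which lies near the shares of all genes for a list in which 1 gene is 7.69%. Without the pair that stood apart, 2 were higher and 4 lower with each agent. The last median was 0.05 without the trend over GC content and length. Trib3, a pseudokinase raised by ATF4, measured 54.7 ± 9.72 CPM in control cells, 37.8 ± 6.29 CPM with oxLDL, 34.3 ± 3.18 CPM with IS and 52.6 ± 4.84 CPM with oxLDL and pNaKtide. It fell with oxLDL by 0.53 ± 0.11 (adjusted p = 0.00736) and with IS by 0.67 ± 0.11 (adjusted p = 0.00768), and it rose with pNaKtide added to oxLDL by 0.48 ± 0.12 (adjusted p = 0.00125). Without that trend the rise was 0.13 (adjusted p = 0.266), and the fall with oxLDL was -0.23 (adjusted p = 0.054). Ddit3, which encodes the stress factor CHOP, changed by 0.06 ± 0.10, -0.08 ± 0.10 and 0.20 ± 0.10 in the same comparisons (adjusted p = 0.696, 0.665 and 0.123). Ddit3 stands under a pair of gene IDs, of which the one with the longer transcript was used. Cebpg, a partner of ATF4 in binding DNA, rose with oxLDL by 0.59 ± 0.15 (adjusted p = 0.00957), or by 0.24 without the trend. With pNaKtide added to oxLDL, Atf5 rose by 0.79 ± 0.14 (adjusted p = 7.11e-05) and Vldlr, a lipoprotein receptor, fell by 0.59 ± 0.10 (adjusted p = 4.62e-05), but without the trend Atf5 stood at 0.34 and Vldlr at 0.05.

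Amino acid transporters other than Slc7a5 counted 1 higher and 5 lower of 11 with oxLDL, 0 higher and 3 lower with IS, and 7 higher and 1 lower with pNaKtide added to oxLDL, with medians of -0.27, -0.27 and 0.37. The last count was 3 higher and 2 lower, with a median of 0.13, under scaling by library size alone, and 5 higher and 0 lower with the trend over GC content and length out. The 3 lower with IS were 1 in either of those fits and 7, with 1 higher, without the pair that stood apart. With oxLDL 6 were lower without that pair. Slc1a5, an exchanger for glutamine, fell with oxLDL by 0.45 ± 0.10 (adjusted p = 0.00783) and rose with pNaKtide by 0.61 ± 0.10 (adjusted p = 3.81e-05), with -0.20 and 0.34 with the trend out. Slc7a1, a carrier of cationic amino acids, fell with IS by 0.43 ± 0.12 (adjusted p = 0.0694), and by 0.32 (adjusted p = 0.111) under scaling by library size alone. Slc38a2, a sodium-coupled carrier of neutral amino acids, went the other way, with 0.29 ± 0.11 with oxLDL (adjusted p = 0.0599) and -0.46 ± 0.12 with pNaKtide added (adjusted p = 0.00185). Without the trend over GC content and length its values were -0.05 and 0.07.

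Of 20 cytosolic aminoacyl-tRNA synthetases, which load tRNAs with amino acids, 2 were higher and 11 lower with oxLDL, 0 higher and 7 lower with IS, and 13 higher and 3 lower with pNaKtide added to oxLDL, with medians of -0.23, -0.21 and 0.22. The last median was -0.01 under scaling by library size alone. Without the pair that stood apart, 2 were higher and 11 lower with oxLDL, and 1 higher and 13 lower with IS. Mars, for methionine, fell with oxLDL by 0.45 ± 0.10 (adjusted p = 0.00769) and with IS by 0.34 ± 0.10 (adjusted p = 0.0686), and it rose with pNaKtide added to oxLDL by 0.58 ± 0.10 (adjusted p = 4.02e-05). The fall with oxLDL was -0.28 with the trend out. Dars, for aspartate, showed 0.28 ± 0.11 with oxLDL (adjusted p = 0.0596) and -0.45 ± 0.11 with pNaKtide (adjusted p = 0.0015), and -0.13 and 0.06 without the trend over GC content and length.

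Of 26 other enzymes of the same pathways that were tested, out of 27 listed, 4 were higher and 8 lower with oxLDL, 0 higher and 3 lower with IS, and 7 higher and 8 lower with pNaKtide added to oxLDL. With oxLDL 15.4% were higher and 30.8% lower, and with pNaKtide added 26.9% and 30.8%, the latter pair near the shares of all genes. Without the pair that stood apart, 5 were higher and 10 lower with oxLDL, and 5 higher and 11 lower with IS. Their medians were -0.07, -0.15 and -0.0015, and the first was 0.06 under scaling by library size alone, the last 0.02 without the trend over GC content and length. Under scaling by library size alone 4 were higher and 13 lower with pNaKtide added, with a median of -0.22. Got2, the mitochondrial aspartate transaminase, fell with oxLDL by 0.62 ± 0.14 (adjusted p = 0.00782) and rose with pNaKtide by 0.78 ± 0.14 (adjusted p = 5.71e-05), and the fall with oxLDL was -0.40 with the trend out. Pck2, the mitochondrial phosphoenolpyruvate carboxykinase, fell with IS by 0.53 ± 0.12 (adjusted p = 0.0443). Aldh1l2, which oxidizes formyl-folate in mitochondria, fell with pNaKtide added to oxLDL by 0.74 ± 0.12 (adjusted p = 3.58e-05), and stood at -0.41 with the trend out.

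**Figure D3:**
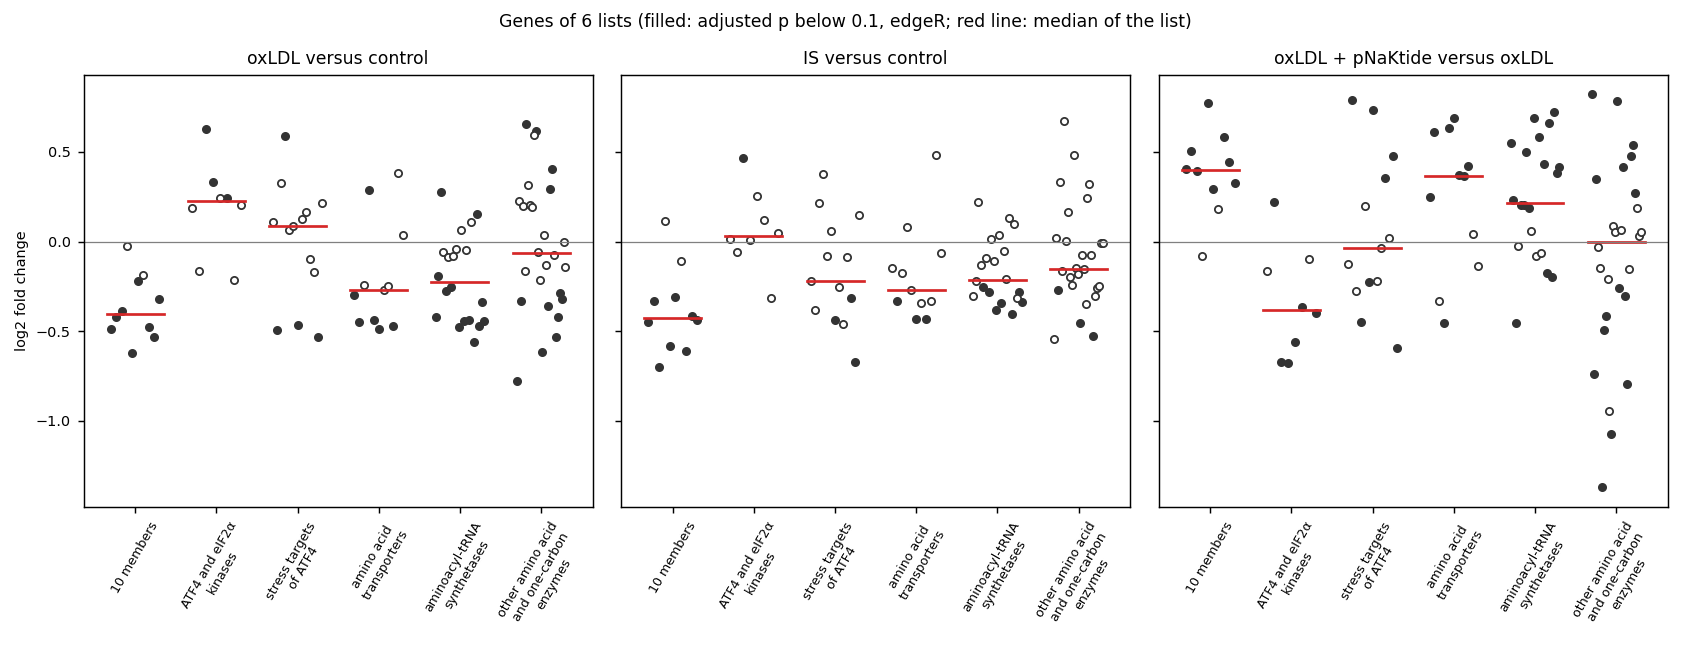
Log2 fold changes (y axis) of every tested gene of the 10 members and of 5 other lists (x axis) in 3 comparisons, with filled points for genes called at an adjusted p below 0.1 and a red line at the median. The members' medians of -0.40, -0.42 and 0.40 lie below 0 with oxLDL and with IS and above 0 with pNaKtide added.

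Over the 6 groups the members kept a common pattern with a few exceptions. The centred mean of the members, on the log2 scale, was 0.16 in control, 0.17 with pNaKtide, -0.22 with IS, -0.10 with IS and pNaKtide, -0.20 with oxLDL and 0.19 with oxLDL and pNaKtide. The difference of a gene from this mean is given as the root mean square over the 6 groups, in log2 units. Shmt2 and Aldh18a1 were the closest pair of members, at 0.02. Mthfd2 was farthest from the mean of the members, at 0.24, followed by Pycr1 at 0.16, Psph at 0.14 and Phgdh at 0.14. Mthfd2 and Psph were each other's closest member, at 0.12. Among 12485 genes outside the lists whose mean log2 CPM reached 1, the 5 closest to the mean of the members were Fam69b at 0.0081, Mgst3 at 0.02, Csnk1g2 at 0.02, Tango6 at 0.02 and Aimp2 at 0.02. These 5 lay closer to the mean than any member did, the closest being Slc7a5 at 0.04, so the pattern was not particular to the members. The first principal component described above held 64.4% of the variance of its genes, and its part in the pattern was not tested. The groups share libraries with every comparison above, so this likeness is a description.

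GC content and transcript length bore on some of these values. Phgdh, Shmt2, Chac1 and Slc7a5 had the highest GC content of the members, from 56.3% to 57.4% of the longest transcript. After a smooth trend over GC content and length was taken out of each library, 5 members were lower with oxLDL. These were Asns (-0.46), Phgdh (-0.33), Aldh18a1 (-0.32), Shmt2 (-0.25) and Psat1 (-0.24). Pycr1 (-0.30, adjusted p = 0.177), Slc7a5 (-0.10, adjusted p = 0.258) and Chac1 (-0.08, adjusted p = 0.647) were no longer called. With pNaKtide added to oxLDL, 6 members were higher, with Asns at 0.59, Phgdh at 0.42, Pycr1 at 0.41, Psat1 at 0.39, Aldh18a1 at 0.27 and Psph at 0.22. Shmt2 (0.13), Slc7a5 (0.11) and Chac1 (0.01) were no longer called. With IS, 8 members were still lower.

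Scaling also bore on the values. Without TMM, with library size alone, the median of all genes moved from 0.04 to 0.17 with oxLDL, from 0.03 to 0.14 with IS and from -0.09 to -0.30 with pNaKtide added to oxLDL. The share of called genes that were higher moved from 50.1% to 68.6%, from 56.1% to 83.6% and from 45.9% to 26.0%. On that scale Psat1 (-0.09), Pycr1 (-0.34) and Chac1 (-0.25) were no longer called with oxLDL. Psat1 (0.07), Aldh18a1 (0.18), Chac1 (0.17) and Slc7a5 (0.10) were no longer called with pNaKtide added. Mthfd2 was called higher with IS (0.23, adjusted p = 0.062) and lower with pNaKtide added to oxLDL (-0.30, adjusted p = 0.000701). Phgdh, Shmt2 and Asns kept their calls in all 3 comparisons.

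**Figure D4:**
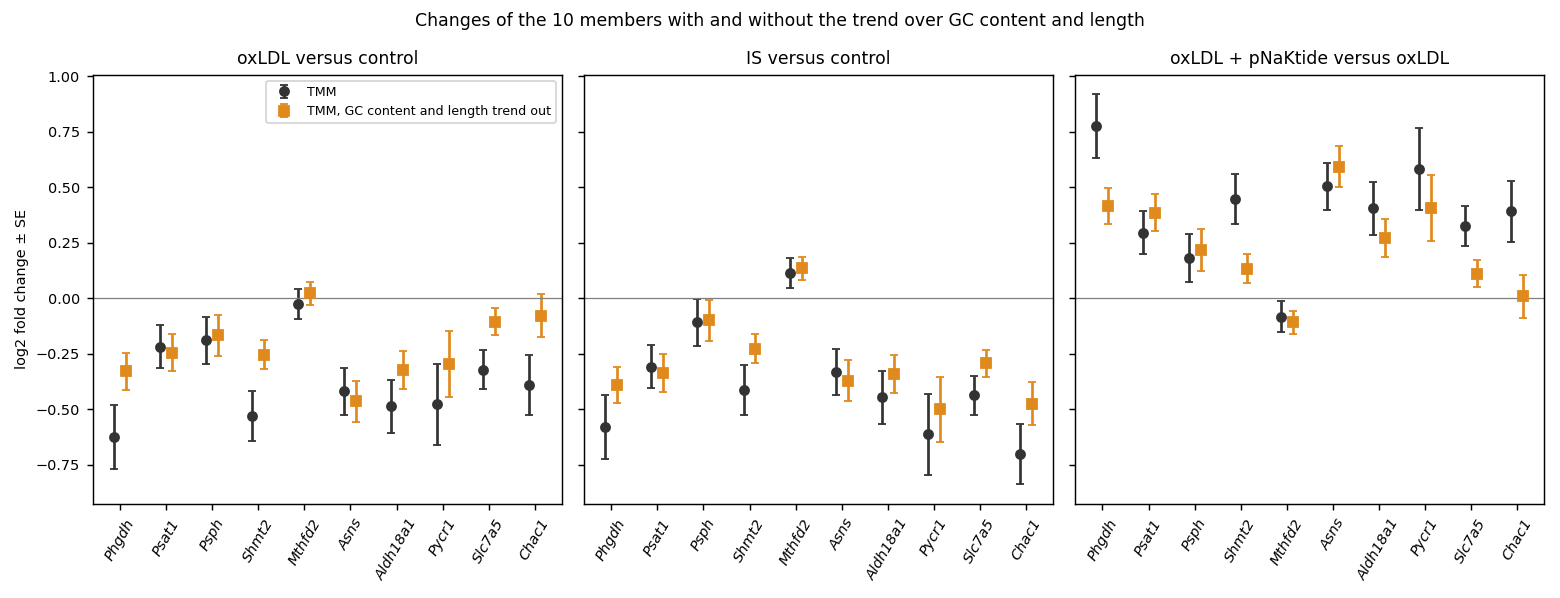
Log2 fold change ± SE (y axis) of each member (x axis) in 3 comparisons, after TMM normalization (circles) and after the trend over GC content and length was also taken out (squares). Asns kept its value, at -0.46 with oxLDL and 0.59 with pNaKtide added, while the values of Chac1 moved to -0.08 and 0.01.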

How the data were processed

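The members, gene lists and tests were chosen with earlier results of these data known. Libraries were made with a stranded mRNA kit. The authors trimmed paired-end reads with Trimmomatic 0.38, aligned them to GRCm38 with HISAT2 2.1.0 and deposited raw counts per gene, made with GenomicAlignments. Neither the gene annotation used for counting nor its strand option is given in the sources used here. The FPKM values deposited by the authors scale these counts by library size factors and gene length, and were used for levels between genes and for 1 alternative. The deposited normalised counts hold the same data and were not used. Ensembl IDs were mapped to symbols with the GENCODE M21 annotation, and 54079 of 54232 had one.

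The 20139 genes whose counts summed to over 14 were analysed with edgeR 4.0.16 in R 4.3.3 (TMM, robust quasi-likelihood F test, two-sided, 1 fit of 6 group means, no covariate), with Benjamini-Hochberg adjustment over all genes tested and a threshold of 0.1. The common biological coefficient of variation was 14.0%. Counts of replicates differed beyond sampling noise in all 60 pairs (lowest chi-square per degree of freedom 1.30). Depth was 6945498 to 15159877 counts, and intervals of 95% are those of the fit.

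Alternatives were DESeq2 1.42.0, RLE factors or library size in place of TMM, other count filters, a threshold of 0.05, limma-trend (limma 3.58.1) on log2(FPKM + 1) with a mean FPKM of at least 0.5, the replicate number as a block, the compared groups alone, leaving out control replicate 1 with IS replicate 4, leaving out each library, and a trend over GC content and length taken out of each library (mgcv 1.9.3). Counts of Phgdh summed with those of its copies were added after the data were seen. The fits were also run on simulated counts with known changes, and the outcome is not given here. Beyond the 10 members, the text names Atf4, Ddit3 and Trib3, in each further list and comparison the called gene of lowest adjusted p on either side of 0, and the 5 genes closest to the members in pattern. A gene that this rule names is not reported here.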

Additional observations from a re-analysis of the deposited data

Results flagged for a closer look

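In groups of 5 libraries, a library was set aside for a closer look when its gap to the nearest other library was too wide a share of the range of its group by Dixon's test at the 95% level. Of 60 tests on the members 7 passed, and chance passes about 1 in 20 groups. Control replicate 1 was low for Phgdh (128.6 CPM), Shmt2 (63.3 CPM) and Chac1 (13.6 CPM). IS replicate 4 was high for Psat1 (441.8 CPM) and Shmt2 (85.3 CPM). The IS and pNaKtide replicate 2 was high for Asns (204.6 CPM), and the oxLDL and pNaKtide replicate 3 was low for Psat1 (451.3 CPM).

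The change with pNaKtide differed between media by a test of the difference itself. Between oxLDL-treated and untreated cells it was greater for Phgdh (0.75), Shmt2 (0.49), Asns (0.47), Aldh18a1 (0.44) and Slc7a5 (0.40), in log2 units. Shmt2, Aldh18a1 and Slc7a5 were not called in this test with the trend over GC content and length out or under scaling by library size alone. Between oxLDL-treated and IS-treated cells it was greater for Phgdh (0.67), Shmt2 (0.40) and Asns (0.40), where Shmt2 was not called with that trend out, at 0.10, and neither Shmt2 nor Asns under scaling by library size alone, at 0.20 each.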

How the results depend on the processing

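With library size alone, 5 members were called with oxLDL, 5 with pNaKtide added to oxLDL (4 higher, 1 lower), 1 with oxLDL and pNaKtide against control and 3 in the difference of the pNaKtide change between oxLDL-treated and untreated cells (2 higher, 1 lower). With the trend over GC content and length out, 5 were called with oxLDL, 5 with IS and pNaKtide against control (1 higher, 4 lower) and 3 in that difference (2 higher, 1 lower). Without control replicate 1 and IS replicate 4, 9 were called in that difference and 9 with IS and pNaKtide against control (1 higher, 8 lower). In that fit 40.0% and 32.4% of all genes were called in these comparisons, in either direction. The latter count, 0 in the fit reported, was 7 with DESeq2 (1 higher), 5 with more than 14 counts in every library (1 higher), 1 with limma-trend and 5 with the compared groups alone. At an adjusted p of 0.05, 3 were called with IS and 1 in the difference between oxLDL-treated and IS-treated cells, which was 5 with DESeq2, with more than 14 counts in every library (4 higher, 1 lower) and with limma-trend. With the compared groups alone, 0 were called with IS. Leaving out 1 library gave 5 to 9 members with oxLDL, 1 to 8 with IS, 8 to 9 with pNaKtide added to oxLDL, 0 to 9 with IS and pNaKtide against control (9 without control replicate 1), 4 to 9 in the difference between oxLDL-treated and untreated cells (9 without control replicate 1) and 1 to 5 in that between oxLDL-treated and IS-treated cells (1 without IS replicate 4, oxLDL replicate 2 or oxLDL replicate 5). Shares of all genes do not stand beside most of these counts. The number called over all genes moved between fits too, as given below, so the counts are no result about the members alone. The cause was not tested. Pycr1 had the fewest counts of the members, 3621 over the 30 libraries, and the widest intervals.

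Signs turned for Mthfd2 with oxLDL (0.10 with library size alone, 0.0022 with more than 14 counts in every library, 0.023 with the trend out) and for Psph with IS (0.018) and with pNaKtide added to oxLDL (-0.039), both with library size alone. Genes called over all genes ranged from 0 to 9140 with IS (1599 in the fit reported), from 8 to 6517 with IS and pNaKtide against control (72), from 11 to 1968 with oxLDL and pNaKtide against control (1047), from 4138 to 9591 with oxLDL (7259) and from 2411 to 8049 in the difference between oxLDL-treated and untreated cells (4951). The share of called genes that were higher with oxLDL and pNaKtide against control was 39.2%, 19.4% with library size alone and 53.2% with the trend out. In the differences of the pNaKtide change it was 52.0% between oxLDL-treated and untreated cells (24.3% with library size alone) and 47.5% between oxLDL-treated and IS-treated cells (24.9% and, with the trend out, 58.8%).

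Correlations of same-numbered libraries ranged from -0.66 to 0.74, which does not settle whether replicate numbers pair the samples. Of the 5 pairs in a comparison, 1 (IS and pNaKtide against IS) to 4 (oxLDL and pNaKtide against control) had a correlation above 0.1. With the replicate number as a block, 8 members were called with oxLDL, 8 with IS, 8 with pNaKtide added to oxLDL, 5 and 4 in the differences of oxLDL-treated from untreated and from IS-treated cells, 5 with IS and pNaKtide against control and 0 in the other comparisons.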
